A study of Caenorhabditis elegans with 7 samples.

Results

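The metallothionein genes mtl-1 and mtl-2, the ferritin genes ftn-1 and ftn-2, the divalent metal transporter genes smf-1, smf-2 and smf-3, the cadmium-responsive gene cdr-1 and the zinc transporter genes cdf-1 and ttm-1 were followed in whole Caenorhabditis elegans fed the cocoa peptide 13L. All 10 genes were found on the array by their symbols, with 16 probe sets that name a single gene, out of 22548 probe sets and 17118 named genes tested. A probe set is a group of short probes read as 1 value. A further probe set is shared by smf-3 and its neighbour daao-1. The control group held 4 samples of the wild-type strain N2 on NGM plates, the usual agar for worms, and the other group 3 samples of the same strain on NGM with 1 µg/mL of 13L. Both were kept at 20°C for 3 days, from the egg to the young adult stage, with no mutant allele in either group. A further 13L sample, which the number of replicates in the methods implies, is not analysed here. The arrays are called SL1, SL5, SL9 and SL69 (NGM) and SL4, SL8 and SL12 (13L).

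Animals need iron, zinc, copper and manganese in small amounts, and an excess of any of them, or a toxic metal such as cadmium, damages cells. Metallothioneins are short, cysteine-rich proteins that bind zinc, copper and cadmium, and ferritins form a hollow shell that stores iron. Transporters of the NRAMP family, to which the smf genes belong, bring divalent metals such as manganese and iron into the cytosol, while cation diffusion facilitators such as cdf-1 and ttm-1 move zinc out of it. In this worm the intestine is the main site of metal uptake and storage, and several of these genes are known to be switched on there by cadmium, zinc or iron.

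Values were deposited as log2 after background correction and quantile normalization by the authors, and the offset of that scale is not stated. The median of an array was 1.01 to 1.06. Yeast transcripts, absent from worms, are targeted by 5 control probe sets, and the brightest of these had a mean of 0.74, which serves here as the mark of little signal over background. The 13 intestine markers, such as elt-2, ges-1, ifb-2 and act-5, all had a mean above that mark, and their median log2 level lay between 4.79 and 5.09 on every array. On the linear scale their summed level ran from 3326 to 3819 on NGM and from 3341 to 3732 in 13L. Sperm markers differed far more, with SL1, SL4 and SL69 low. The control probe sets of actin, 3′ minus 5′, differed by 1.27 on SL4 and by 1.66 to 1.96 on the other arrays.

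None of the 10 genes was called as different in worms given 13L. With the moderated statistic of limma and adjustment over all probe sets, 0 of the 16 probe sets passed an adjusted p under 0.05 (lowest 0.944), where 0.0% of all probe sets passed. At an unadjusted p under 0.05 the count was also 0 of 16, beside 5.11% of all probe sets (2.54% higher and 2.57% lower in 13L). The groups overlapped on every one of the 16, while 6.08% of all probe sets had groups that did not overlap. Differences ran from -0.42, for a ttm-1 probe set, to 0.36, for an mtl-2 probe set. The 16 had a median difference of -0.07, with 4 positive and 12 negative, beside a median of 0.01 over all probe sets. The 4 positive ones belong to mtl-2, with 3, and cdf-1, with 1. The number of arrays limits the precision, and the exact permutation test on 3 against 4 arrays cannot give a p below 0.0571.

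**Figure D1:**
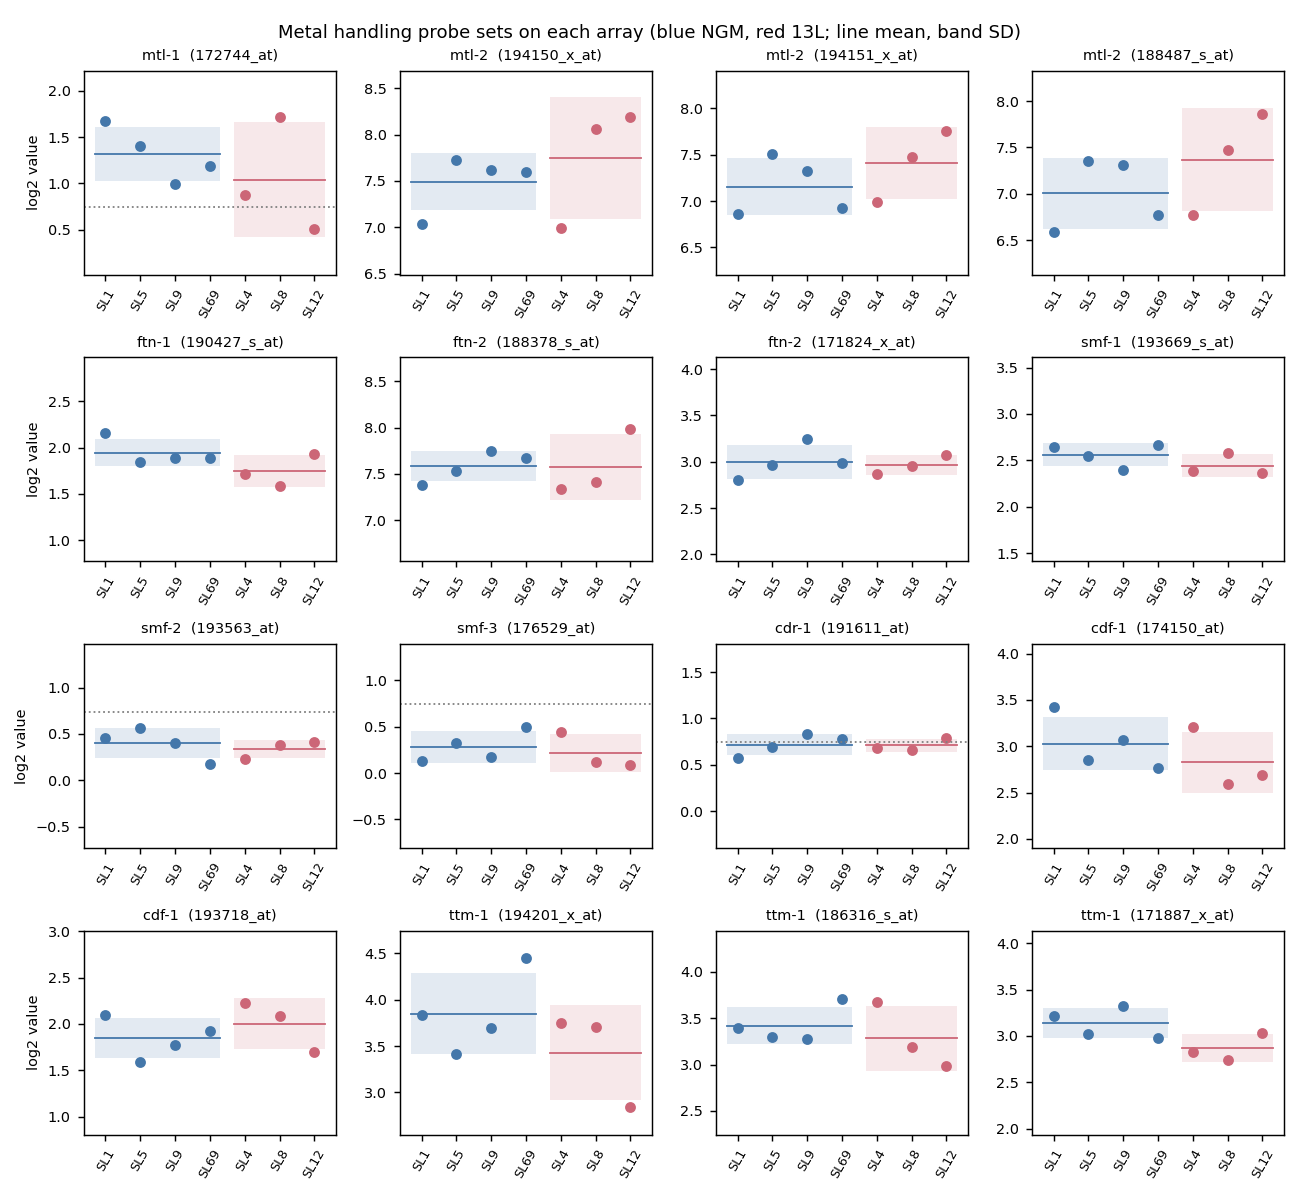
Deposited log2 value (vertical axes, each spanning the same width) of the 16 probe sets on each of the 7 arrays, NGM in blue and 13L in red, with the group mean as a line, the SD as a band and the brightest yeast control mean (0.74) dotted where it falls in range. The groups overlap in every panel, and mtl-1, mtl-2 and 1 ttm-1 probe set scatter most.

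The worm has a pair of well studied metallothionein genes. Of these, mtl-1 is active without added metal in a few cells of the pharynx and, on exposure to cadmium, in the intestine, and it is known as a target of the FOXO factor DAF-16. Its only probe set, 172744_at, read 1.67 (SL1), 1.40 (SL5), 0.99 (SL9) and 1.19 (SL69) on NGM. In 13L it read 0.88 (SL4), 1.72 (SL8) and 0.51 (SL12). The 13L group thus held both the highest and the lowest of the 7 arrays, and SL12 lay below the mark of the yeast controls. On NGM the mean was 1.31 ± 0.29 (SD, n = 4), and with 13L it was 1.04 ± 0.62 (SD, n = 3). This is a difference of -0.28, with a 95% interval of -0.89 to 0.34 (unadjusted p = 0.333, adjusted p = 0.953 from limma). Without SL8 the difference was -0.62 (unadjusted p = 0.0161, adjusted p = 0.999 from limma), without SL12 it was -0.01, and without SL4 it was -0.20. Markers of the pharynx were also lower on average in 13L, with a median difference of -0.26 and 9 of 10 negative, 9 of the 10 above the yeast controls, and a summed linear level of 72.6 to 141 on NGM and 59.6 to 112 in 13L. Their median log2 level was lowest on SL4 and highest on SL69, while mtl-1 was lowest on SL12, with SL4 next, and highest on SL8. By these levels SL1 was the second highest array for both. The order of the pharynx markers depended on the measure. By the median deviation of each marker from its own mean, SL8 was lowest (-0.21), close to SL5 (-0.20) and SL4 (-0.19). By that measure SL69 was highest (0.55), SL12 stood at 0.21 and SL1 at 0.05. The part of pharynx content in the level of mtl-1 was not tested.

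The second gene, mtl-2, is known mainly as a cadmium-induced gene of the intestine. It had 3 probe sets, named by Affymetrix with the suffixes _x_at or _s_at, as are all those of ftn-1, ftn-2, smf-1 and ttm-1. These suffixes mark probes that can also bind other transcripts. The brightest mtl-2 probe set, 194150_x_at, read 7.03 (SL1), 7.72 (SL5), 7.62 (SL9) and 7.59 (SL69) on NGM. In 13L it read 6.99 (SL4), 8.06 (SL8) and 8.18 (SL12). Probe set 194151_x_at read 6.86, 7.51, 7.32 and 6.93 on the same NGM arrays and 6.99, 7.48 and 7.75 in 13L. For 188487_s_at the values were 6.59, 7.35, 7.32 and 6.77 on NGM and 6.77, 7.48 and 7.86 in 13L. The probe sets moved together across the arrays. SL12 was the highest on all 3, and SL1, SL4 and SL69 were the lowest arrays on all 3. The differences between 13L and NGM were 0.26, 0.25 and 0.36, or 1.19, 1.19 and 1.28 times the NGM level. None exceeded the spread between the arrays (unadjusted p = 0.394, 0.267 and 0.222, adjusted p = 0.960, 0.950 and 0.946 from limma). The widest interval, that of 188487_s_at, ran from -0.26 to 0.98.

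Sperm markers were lowest on the same arrays as mtl-2, although on 194150_x_at SL69 (7.59) lay only just below SL9 (7.62). The median log2 level of the sperm markers was 2.79 on SL1, 4.11 on SL4 and 5.28 on SL69. It lay between 6.63 and 7.58 on the other arrays. Of 26 sperm markers measured, such as gsp-3, gsp-4 and the major sperm protein genes, 23 had SL1, SL4 and SL69 as their lowest arrays, as had 4.93% of all probe sets. On the linear scale their summed level ran from 249 to 5824 on NGM and from 812 to 6596 in 13L, and 25 of the 26 had a mean above the yeast controls. The median log2 level of body wall muscle markers had the same 3 lowest arrays and the same highest array, in a narrower range. It was 6.69 on SL1, 6.83 on SL4 and 6.84 on SL69 and 7.01 to 7.40 on the other arrays, highest on SL12. Of 10 measured, 9 had a mean above the yeast controls (hlh-1 did not). Only 3 of the 10 (unc-54, unc-27 and mup-2) had SL1, SL4 and SL69 as their lowest arrays. For myo-3, SL69 was the highest array (3.85). The summed linear level of the 10 muscle markers ran from 1590 to 1816 on NGM and from 1652 to 1959 in 13L. In whole worms, fewer cells of a type and less RNA per cell cannot be told apart. Without SL1 and SL69, but with SL4 kept, the differences of mtl-2 were 0.08, -0.01 and 0.04. Without SL12 they were 0.04, 0.08 and 0.11. Without SL4, but with SL1 and SL69 kept, they were 0.63, 0.46 and 0.66. The first and last of these fits kept arrays low in sperm markers in a single group, so they do not compare groups of like sperm level. No fit left out SL1, SL4 and SL69 together. Without SL4 the unadjusted p was 0.0120 for 194150_x_at and 0.0264 for 188487_s_at (adjusted p = 0.873 for both, from limma). The part of sperm or muscle content in the level of mtl-2 was not tested. The level of mtl-1 did not share this order, since SL1 was its second highest array and SL12, the richest in sperm markers, its lowest.

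**Figure D2:**
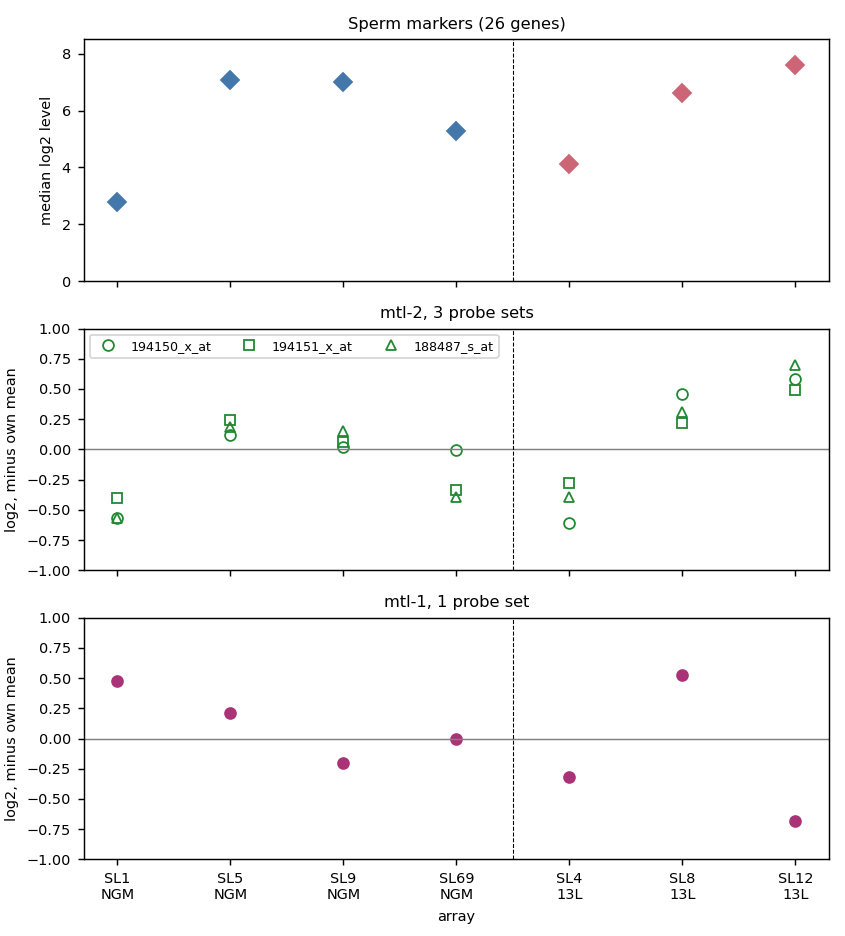
Median log2 level of 26 sperm markers (top), and the log2 value minus its own mean over the 7 arrays for the 3 probe sets of mtl-2 (middle) and the probe set of mtl-1 (bottom), by array, with NGM left and 13L right of the dashed line. SL1, SL4 and SL69 are lowest in the upper panels, while mtl-1 is highest on SL8 and SL1 and lowest on SL12.

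Of the ferritin genes, ftn-1 is the intestinal one, induced by iron and repressed when iron is scarce, and ftn-2 is expressed more widely. The single probe set of ftn-1, 190427_s_at, read 2.16 (SL1), 1.84 (SL5), 1.88 (SL9) and 1.89 (SL69) on NGM and 1.71 (SL4), 1.59 (SL8) and 1.93 (SL12) in 13L. SL4 and SL8 lay below all NGM arrays, and SL12 lay above 3 of them. On NGM the mean was 1.94 ± 0.15 (SD, n = 4), and with 13L it was 1.74 ± 0.17 (SD, n = 3), which is -0.20 apart with a 95% interval of -0.47 to 0.07. The test gave no call (unadjusted p = 0.127, adjusted p = 0.944 from limma). Without SL12 the difference was -0.29 (unadjusted p = 0.0438, adjusted p = 0.964 from limma).

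For ftn-2 the brighter probe set, 188378_s_at, read 7.38 (SL1), 7.53 (SL5), 7.75 (SL9) and 7.68 (SL69) on NGM and 7.33 (SL4), 7.41 (SL8) and 7.98 (SL12) in 13L. SL12 was the highest array, as it was for mtl-2, and SL4 and SL1 were the lowest pair. The NGM mean was 7.59 ± 0.16 (SD, n = 4) and the 13L mean 7.58 ± 0.35 (SD, n = 3). The difference of -0.01 had a 95% interval of -0.39 to 0.37. The dimmer probe set, 171824_x_at, lay between 2.81 and 3.25 on all 7 arrays and differed by -0.04, with an interval of -0.30 to 0.23. Both differences turned positive when SL9 or SL4 was left out.

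The smf genes encode worm homologues of the mammalian transporter DMT1. Among them smf-3 is known for uptake of manganese and iron in the intestine, and smf-1 and smf-2 are direct neighbours in the genome. The probe set of smf-1, 193669_s_at, read 2.64 (SL1), 2.54 (SL5) and 2.66 (SL69) on NGM, with SL9 lower and just above SL4, and 2.38 (SL4), 2.58 (SL8) and 2.36 (SL12) in 13L. The groups overlapped, as SL8 exceeded SL5 and SL9, and the difference was -0.12, with an interval of -0.36 to 0.11. The probe set of smf-2, 193563_at, lay between 0.18 and 0.56 on all arrays and differed by -0.06. That of smf-3 alone, 176529_at, lay between 0.08 and 0.50 and differed by -0.07, and the probe set shared with daao-1, 175864_at, lay between 0.17 and 0.36 and differed by -0.04. All probe sets of smf-2 and smf-3 stayed below the mean of the brightest yeast control. No decrease from such a level could be read with these probe sets.

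The gene cdr-1 encodes a glutathione transferase-like protein of lysosomes that is strongly induced in the intestine by cadmium. Its probe set, 191611_at, read 0.57 (SL1), 0.69 (SL5), 0.83 (SL9) and 0.78 (SL69) on NGM and 0.68 (SL4), 0.66 (SL8) and 0.79 (SL12) in 13L. These values cluster around the mark of the yeast controls, and their residual SD of 0.10 was the smallest among the 16 probe sets. The difference was -0.01, with a 95% interval of -0.23 to 0.21. Together, smf-2, smf-3 and cdr-1 were the 3 genes with no probe set above the yeast controls, while 13 of the 16 probe sets exceeded that mark.

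The zinc exporter gene cdf-1, whose protein lowers cytosolic zinc, had 2 probe sets that pointed opposite ways. The brighter, 174150_at, read 3.42 (SL1), 2.85 (SL5), 3.07 (SL9) and 2.77 (SL69) on NGM and 3.20 (SL4), 2.59 (SL8) and 2.69 (SL12) in 13L. SL8 and SL12 lay below every NGM array, whereas SL4 exceeded 3 of them. The dimmer, 193718_at, read 2.096 (SL1), 1.59 (SL5), 1.78 (SL9) and 1.92 (SL69) on the NGM arrays and 2.23, 2.09 and 1.69 in 13L. The differences were -0.20 (unadjusted p = 0.320, adjusted p = 0.953 from limma) and 0.16 (unadjusted p = 0.343, adjusted p = 0.953 from limma). Leaving out 1 array moved the first between -0.39 (without SL4) and -0.07 (without SL1) and the second between 0.05 (without SL4) and 0.31 (without SL12). Averaged over both probe sets, cdf-1 differed by -0.02.

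The second zinc transporter gene, ttm-1, promotes the excretion of zinc into the gut lumen and was originally described as a gene induced by a pore-forming toxin. It had 3 probe sets, all with a negative difference. The brightest, 194201_x_at, read 3.84 (SL1), 3.42 (SL5), 3.69 (SL9) and 4.45 (SL69) on NGM and 3.75 (SL4), 3.70 (SL8) and 2.84 (SL12) in 13L. Its difference of -0.42, the largest in size among the 16, had SL69 as the highest and SL12 as the lowest array, and its 95% interval ran from -1.05 to 0.21. Without SL12 the difference was -0.12, and without SL69 it was -0.22. On 186316_s_at the same arrays were highest and lowest, with 3.71 and 2.98, and the difference was -0.13. The third, 171887_x_at, read 3.21 (SL1), 3.03 (SL5), 3.33 (SL9) and 2.98 (SL69) on NGM and 2.83 (SL4), 2.75 (SL8) and 3.04 (SL12) in 13L. Here SL4 and SL8 lay below all NGM arrays and SL12 within them. The NGM mean was 3.14 ± 0.16 (SD, n = 4) and the 13L mean 2.87 ± 0.15 (SD, n = 3). This difference of -0.27 had the lowest unadjusted p of the 16 (0.0514, adjusted p = 0.944 from limma), and the exact permutation test gave a two-sided p of 0.171.

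**Figure D3:**
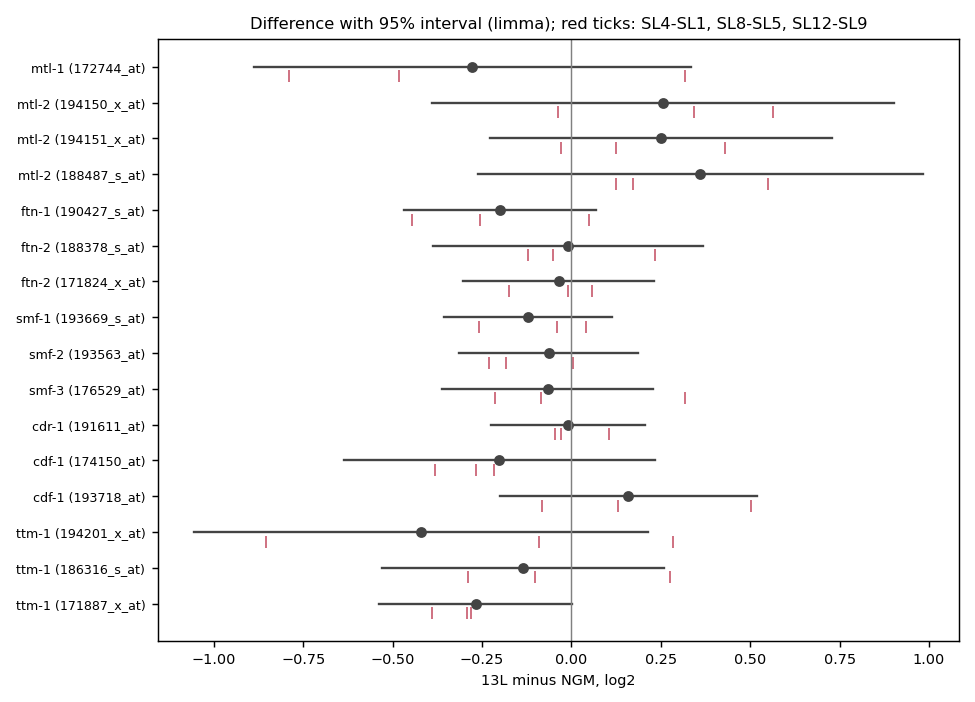
Difference between 13L and NGM on the log2 scale for the 16 probe sets (points), with the 95% interval from limma (lines) and the differences within SL4 and SL1, SL8 and SL5, and SL12 and SL9 (red ticks). Every interval includes 0, and the ticks of 188487_s_at (mtl-2), 174150_at (cdf-1) and 171887_x_at (ttm-1) fall on a single side of 0.

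The spread between arrays of a group was large for some of these genes. The residual SD was 0.45 for mtl-1, 0.34 to 0.48 for the probe sets of mtl-2 and 0.47 for the brightest probe set of ttm-1, beside a median of 0.15 over all probe sets. Each of these 5 probe sets had a larger residual SD than at least 93.4% of all probe sets. Among probe sets with a mean above the yeast controls the median residual SD was higher, at 0.19. The residual SD of ftn-1 (0.16), smf-1 (0.12) and the third ttm-1 probe set (0.16) was close to the median of 0.15 over all probe sets. SL12 was the extreme array most often, as the lowest on 5 probe sets (mtl-1, smf-1, smf-3 and 2 of ttm-1) and the highest on 4 (3 of mtl-2 and 1 of ftn-2).

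The array titles form runs of numbers, in which SL4 follows SL1, SL8 follows SL5 and SL12 follows SL9, with SL69 on its own. No source says that these runs mark a batch. In a fit with the runs as blocks, to which SL69 adds nothing, 3 of the 16 probe sets had an unadjusted p under 0.05, or 18.8%, beside 7.88% of all probe sets. These were 171887_x_at of ttm-1 (-0.32, unadjusted p = 0.0120), 174150_at of cdf-1 (-0.29, unadjusted p = 0.0212) and 188487_s_at of mtl-2 (0.28, unadjusted p = 0.0433). On 171887_x_at of ttm-1 the 13L array was lower in every run, with differences of -0.39, -0.28 and -0.29. It was also lower on 174150_at of cdf-1, with -0.22, -0.27 and -0.38. On 188487_s_at of mtl-2 it was higher by 0.17, 0.13 and 0.55. On the other probe sets of these 3 genes the runs did not all point the same way. All 3 runs pointed the same way on 28.9% of all probe sets. Other probe sets of the same genes had a higher p in this fit, among them the dimmer cdf-1 probe set, with a positive difference of 0.18. None passed the adjusted test in it (lowest adjusted p among the 16 = 0.548 from limma).

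The genes whose pattern over the 7 arrays was most like each of 4 genes were ranked by the root mean square of the difference between the deviations from their own means. For mtl-1 these were scl-2 (0.13 on the log2 scale), mnp-1 (0.14), ran-2 (0.16), F48D6.4 (0.18) and fbxa-216 (0.18), against an SD of 0.44 for mtl-1 itself. For mtl-2 they were C14C10.1 (0.15), unc-52 (0.15), tdo-2 (0.17), C15C6.2 (0.17) and cth-2 (0.18), against an SD of 0.46. For ftn-1 they were exc-5 (0.05), kin-2 (0.05), snt-2 (0.05), lim-9 (0.06) and sptl-3 (0.06), against an SD of 0.18. For cdr-1, with an SD of 0.09, the nearest was C34C12.8 (0.02), followed by C54G4.2, cpb-3, sel-2 and F25G6.8. The patterns of the metallothionein genes were unlike each other, at a distance of 0.59 to 0.69 between mtl-1 and the probe sets of mtl-2. These distances are descriptions of 7 arrays and carry no test.

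Other metal handling genes were read from 7 lists, with the brightest probe set for each gene. Of 57 genes measured, 30 were higher and 27 lower in 13L in mean level, at a median of 0.0084. Past an unadjusted p of 0.05 lay 3 of them, all lower, or 5.26%. Of all probe sets 5.11% lay past it, 2.57% lower and 2.54% higher. None passed the adjusted test. The 3 were cuc-1, which encodes a copper chaperone, mrp-1, an ABC transporter that protects worms from cadmium and arsenite, and pqm-1, a zinc finger transcription factor. For cuc-1 the NGM arrays read 5.92 (SL1), 5.93 (SL5), 5.89 (SL9) and 5.85 (SL69) and the 13L arrays 5.33 (SL4), 5.55 (SL8) and 5.49 (SL12). The groups did not overlap, and the difference was -0.44 (unadjusted p = 0.000766, adjusted p = 0.944 from limma). Over all settings it stayed between -0.49 and -0.38. Of the 57 genes, 2 had groups that did not overlap (cuc-1 and numr-2), beside 6.08% of all probe sets. Without SL1 and SL69 the difference of mrp-1 fell in size from -0.34 to -0.13 and that of pqm-1 was -0.54 in place of -0.34. Without SL9 the difference of pqm-1 was -0.22. The unadjusted p rose above 0.05 for pqm-1 without SL9, SL5, SL4 or SL8, and for mrp-1 without any single array other than SL9. With the runs as blocks 11 of the 57 had an unadjusted p under 0.05, 5 higher and 6 lower, or 19.3%, beside 7.88% of all probe sets. None of them passed the adjusted test in that fit (lowest adjusted p = 0.232 from limma, for toc-1, with a difference of 0.60).

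By group, all 4 measured relatives of cdr-1 had a negative difference, with a median of -0.12. It was -0.30 for cdr-2, -0.12 for cdr-3, whose mean lay below the yeast controls, and only -0.0062 for cdr-6. Of 18 genes on the list of zinc and related transporters, 13 were positive, and the list's median was 0.09. The largest difference on it was 0.42, for toc-1 (unadjusted p = 0.105, adjusted p = 0.944 from limma). The ZIP family gene zipt-13 differed by 0.26, and sur-7 by 0.22. Of 7 genes of iron handling, 5 were positive, and the frataxin gene frh-1 differed by -0.26 and the ferroportin-like fpn-1.2 by 0.09. The copper list held cuc-1, cutc-1 and the copper pump gene cua-1, which differed by -0.18. Of 6 heme genes 2 were positive, with mrp-5, a heme exporter gene, at -0.16 and hrg-9 at 0.20. The mean of hrg-9 lay below the yeast controls, and it read 1.16 on SL8 and 0.54 to 0.73 on the other arrays. Of 7 genes of cadmium and arsenic defence 5 were positive, including numr-2 at 0.12, whose groups did not overlap at a level below the yeast controls. Of 12 regulators 4 were positive, led by the Mediator subunit gene mdt-15 at 0.44, with -0.17 for daf-16 and -0.07 for elt-2. For mdt-15 the 13L arrays read 3.21 (SL4), 4.10 (SL8) and 4.05 (SL12), and SL4 lay below all NGM arrays (unadjusted p = 0.0589, adjusted p = 0.944 from limma). The regulators egl-9 and hif-1 had no probe set of their own here. The 13 intestine markers had a median difference of -0.07, with 4 positive and 9 negative. Whether intestinal content had a part in the results was not tested.

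**Figure D4:**
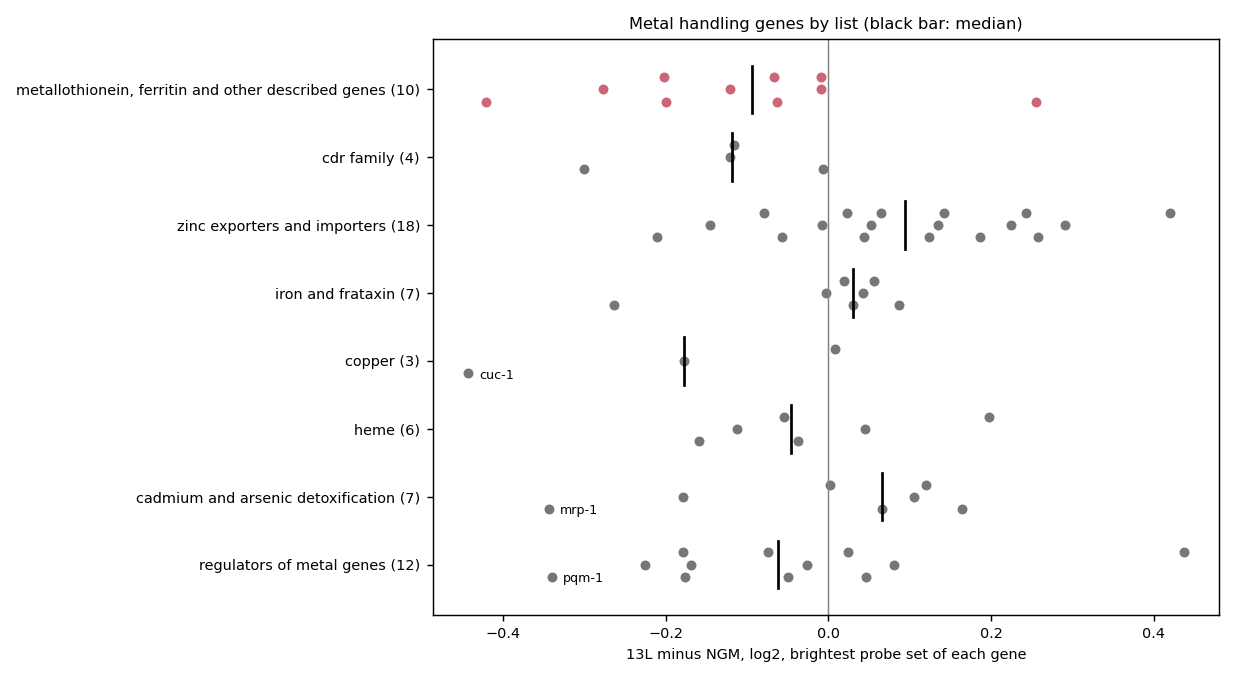
Difference between 13L and NGM on the log2 scale, 1 point per gene on its brightest probe set, for the 10 genes described above (red) and 7 further lists (grey), with the median of each list as a black bar and the number of genes in brackets. The points of every list lie between -0.44 and 0.44, and the named points are the genes with an unadjusted p under 0.05.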

How the data were processed

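Total RNA of whole young adult worms was hybridized to 1 Affymetrix C. elegans Genome Array per sample. Background correction by RMA and quantile normalization were carried out by the authors, who deposited log2 values. RMA and limma are named in the submitters' notes on processing, with versions not given in the sources used here. Gene names came from the annotation of the platform, updated to the symbols of a RefSeq gene table. Of 22548 probe sets (77 controls left out), 20766 had 1 gene, 887 several and 895 none. The two-sided moderated test of limma 3.58.1 (R 4.3.3, without a trend) ran on all of them, with p-values adjusted by Benjamini-Hochberg over all and a threshold of 0.05, and the procedure was tested on simulated data. The exact permutation test used scipy 1.17.1. The genes and lists were chosen with earlier results of these data known. The text names all probe sets of the 10 genes and, of each other list, the 2 genes with the largest moderated t and those with an unadjusted p under 0.05. Further genes (cdr-6, cutc-1, toc-1, daf-16, elt-2 and the body wall muscle genes) were named after their values were seen.

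P-values weigh a difference against the spread between these samples, which the methods call biological replicates. In limma the spread of a probe set is moderated by that of all probe sets tested. The labels give the groups no shared replicate numbers. Deviations of arrays from their group means correlated at 0.529 (SL1 and SL4), 0.156 (SL5 and SL8) and 0.537 (SL9 and SL12) over probe sets, so the fit with runs of title numbers as blocks is given where it moves a count. Other alternatives were each array left out, SL1 and SL69 left out together, trend and robust settings, median centring, cyclic loess and the 11274 brighter probe sets.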

Additional observations from a re-analysis of the deposited data

Results flagged for a closer look

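The NGM sample SL1 stood apart from the other NGM samples in ftn-1. Its value of 2.16 was separated from the nearest NGM sample, at 1.89, by 0.859 of the range of the group, past Dixon's critical value for a group of this size. Of 17 probe sets checked in the NGM group, this was the 1 that stood out, and about 1 in 20 such groups is marked by chance. SL1 was also the sample with the lowest sperm marker level. Without it the difference of ftn-1 between 13L and NGM was smaller in size, at -0.13 (unadjusted p = 0.292, adjusted p = 0.984 from limma).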

How the results depend on the processing

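No probe set of the 10 genes passed the adjusted test under any of the 13 alternatives (lowest adjusted p = 0.548 from limma, with runs as blocks), and 10 of the 16 kept their direction in all that included them. The count at an unadjusted p under 0.05, which was 0, became 3 with runs as blocks and 1 with median centring (ttm-1), and lay between 0 and 2 with single arrays left out. For the 57 other metal genes, the count of 3 became 11 with runs as blocks and 1 among the brighter probe sets, and lay between 1 (without SL8) and 6 (without SL69). The direction turned with single arrays left out for ftn-2 (-0.21 to 0.11 on 188378_s_at and -0.10 to 0.046 on 171824_x_at), cdr-1 (-0.057 to 0.029), smf-3 (-0.18 to 0.0062) and ttm-1 on 186316_s_at (-0.33 to 0.015). With runs as blocks it turned for ftn-2 (0.020 on 188378_s_at), smf-3 (0.0062) and cdr-1 (0.0098), and without SL1 and SL69 for mtl-2 on 194151_x_at (-0.0095). The causes were not tested. The low signal of smf-2, smf-3 and cdr-1 limits what their values can show.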
